A study of Hirudo medicinalis with 12 samples.

Results

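The 150 components described here were those of the leech transcript assembly in which the share of counts held by single transcripts differed most between the ganglion means. A component is a group of assembled sequences, called contigs here, that the assembler placed together and that share an identifier up to the contig number. Components with 2 to 9 contigs and at least 100 counts in each of the 12 libraries were eligible, and 808 of the 58593 components in the table met this. The share of a contig was its count divided by the sum of its component in the same library. The score of a component was the largest absolute difference between any ganglion means of share over its contigs, in percentage points, and the 150 highest scores were kept. They hold 640 contigs. The contig that gave the score is called the scoring contig. In a component of 2 contigs both differ by the same amount in opposite directions, and the one higher in the more posterior ganglion is reported. The components were thus chosen by the shares in all 12 libraries, and their differences are described without a test. In 139 of the 150 the libraries of at least 1 ganglion ranged more widely than the ganglion means differed, as in 97.0% of the 466 eligible components with a score above 0, so the components are called by their rule and not as marks of a ganglion.

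RNA came from the ventral nerve cord of adult medicinal leeches (Hirudo medicinalis) raised on a leech farm and kept in tanks at 16 °C, with no treatment named. Libraries 3, 6 and 9 were from ganglion 19 near the tail, libraries 2, 5, 8, 10, 11 and 12 from ganglion 10 in the middle of the body, and libraries 1, 4 and 7 from ganglion 2 near the head. The series design speaks of 3 leeches, and the labels do not tie a library to a leech. With no more than 3 leeches, some of the 6 libraries of ganglion 10 would share an animal. Libraries of the other ganglia may share one too. The SDs and p-values thus measure only the spread between these libraries, which may be technical. Library totals ran from 6436783 to 19110631 counts. Library 3 of ganglion 19 and library 1 of ganglion 2 stood apart from the rest in how the counts of the members were spread over contigs, and counts without them are given with the results. A ganglion holds neurons, glia and sheath tissue, and in such whole-tissue RNA fewer cells of a type and less RNA per cell cannot be told apart. The identifiers carry no gene name and no sequence was given for them, so neither nervous tissue markers nor the products of these components could be looked up.

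Most animal genes with introns give rise to several transcripts through alternative promoters, splicing or polyadenylation, and nervous tissue is known for especially rich use of such forms. Different forms can encode proteins with different domains, or carry different untranslated ends that set where and how long an RNA is used. In an assembly made without a genome, the contigs of a component can be such forms, but they can also be alleles that differ between animals, close paralogs or fragments of the same RNA. The counts do not tell these apart. A change in share says that the balance within a component differed, and it says nothing on the total, which is given separately.

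The scores of the 150 components ran from 33.86 to 88.74 percentage points, with a median of 43.45. Of the 808 eligible components, 342 had a score of 0, and in 333 of these all contigs of the component held the same values in every library. The members were 32.2% of the 466 components with a score above 0. The other components with a score above 0 had a median of 19.45. The scores fell without a break at the limit. The last members inside were comp14197_c0 at 33.94, comp20530_c0 at 33.89 and comp12452_c0 at 33.86 percentage points. The first components outside were comp27738_c0 at 33.79, then comp10258_c0 and comp11344_c0 at 33.33 each, in a run of 8 components with that score. In comp10258_c0 the scoring contig held the whole component in library 3 of ganglion 19 and nothing in the 11 other libraries. In comp11344_c0 the scoring contig held the whole component in all but libraries 1 and 5, with nothing in library 1 and 92.2% in library 5.

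**Figure D1:**
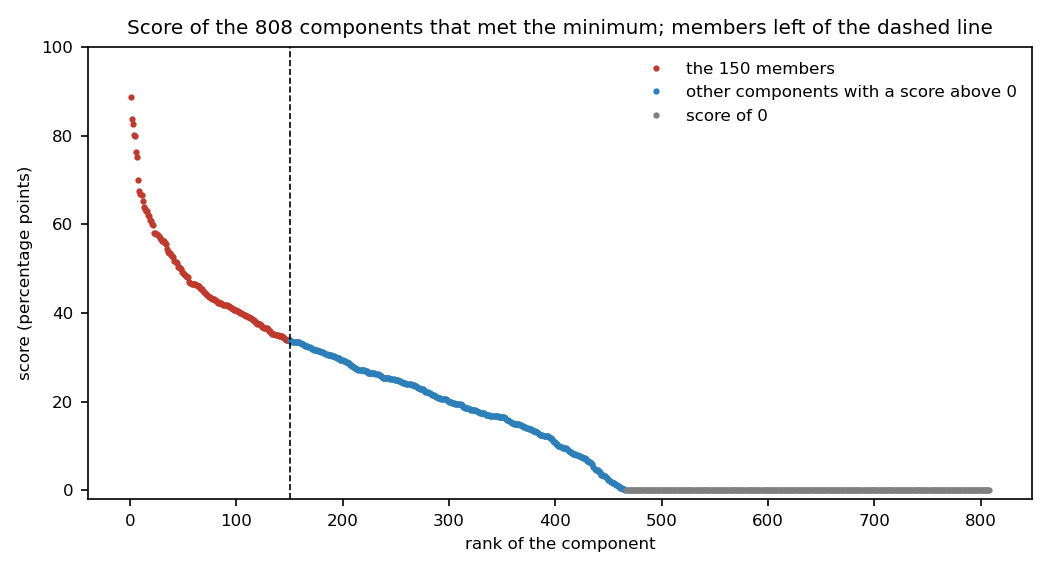
Score of each of the 808 eligible components (vertical axis, percentage points of share) against its rank (horizontal axis), with the 150 members in red, other components with a score above 0 in blue and components with a score of 0 in grey. The curve is steep over the first ranks, passes the limit at 33.86 points without a gap and reaches 0 for 342 components.

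The largest difference lay between ganglia 19 and 2 in 74 components, between ganglia 19 and 10 in 45 and between ganglia 10 and 2 in 31. Over the 466 components with a score above 0 these pairs set the score in 208, 153 and 105. The median scores of the members were close, at 45.68, 44.24 and 41.54 percentage points. Judged by which ganglion mean of the scoring contig lay farthest from the other two, ganglion 19 stood apart in 64 members, ganglion 10 in 32 and ganglion 2 in 54. This count was made for the members only. The ganglion 10 mean rests on 6 libraries and the others on 3 each, so the count does not place ganglion 10 between the others. The contig with the highest mean share was not the same in all ganglia in 104 members, and in 9 of these each ganglion had a leading contig of its own. Over all 466 components with a score above 0, the leading contig differed in 39.1%. In 65 members no library of one ganglion of the scoring pair overlapped with any library of the other, against 18.5% of the 466 components. These are 41 of the 74 members scored between ganglia 19 and 2, 16 of the 45 scored between ganglia 19 and 10, and 8 of the 31 scored between ganglia 10 and 2. Both counts restate the choice of members and are given as description.

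The highest score belonged to comp11238_c0, a component of 2 contigs. Its contig comp11238_c0_seq2 held 100%, 68.5% and 100% of the component in libraries 3, 6 and 9 of ganglion 19, against 0%, 0% and 2.28% in libraries 1, 4 and 7 of ganglion 2. Ganglion 19 averaged 89.5% ± 18.2 and ganglion 2 averaged 0.761% ± 1.32 (SD, n = 3 each), and these libraries were far from overlapping. Ganglion 10 divided into extremes: libraries 2 and 5 had 87.7% and 76.5%, while libraries 8, 10, 11 and 12 had 0%. The libraries in which comp11238_c0_seq2 held most of the component were thus all 3 of ganglion 19 and 2 of the 6 of ganglion 10. The component as a whole held between 319 and 1266 counts per library.

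The next 3 components by score were also drawn from ganglia 19 and 2. In comp12093_c0, with 8 contigs, comp12093_c0_seq4 held 100%, 97.0% and 56.2% in ganglion 19 (libraries 3, 6 and 9) against 0.663%, 0% and 1.52% in ganglion 2 (libraries 1, 4 and 7). In ganglion 10 the lowest library had 0%, the median was 60.2% and the highest had 100%, so the middle ganglion covered the whole scale. The ganglion 2 libraries did not share a form in its place. comp12093_c0_seq8 held 84.8% in library 1, while comp12093_c0_seq1 held 64.4% and 59.1% in libraries 4 and 7. comp19676_c0_seq2 held 100%, 79.6% and 100% of its component in ganglion 19 against 0%, 12.4% and 19.4% in ganglion 2, with 0% to 61.9% in ganglion 10 and a median of 27.5%. comp11043_c0_seq2 held 97.4%, 82.7% and 66.3% in ganglion 19 against 0%, 0% and 5.74% in ganglion 2. In 5 of the 6 ganglion 10 libraries it lay at 29.4% or below, and library 11 with 68.3% lay inside the range of ganglion 19.

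In comp19988_c0 ganglion 10 lay near ganglion 2, and in comp6123_c0 it lay near ganglion 19. comp19988_c0_seq1 held 100%, 58.0% and 96.0% of its component in ganglion 19 against 11.1%, 3.25% and 10.9% in ganglion 2, and it ranged from 0% to 25.6% in ganglion 10 with a median of 2.60%. All 9 libraries of ganglia 10 and 2 lay below all 3 of ganglion 19. comp6123_c0_seq1 held 100% in each ganglion 19 library against 1.17%, 0% and 89.1% in libraries 1, 4 and 7 of ganglion 2. In ganglion 10 it had a median of 97.9%, a lowest value of 74.2% in library 8 and a highest value of 100%. The ganglion 2 mean of 30.1% ± 51.1 (SD, n = 3) joined libraries at both ends of the scale, and library 7 lay with ganglion 10. Without library 4 the difference between ganglia 19 and 2 was 54.9 percentage points, against 69.9 with all libraries.

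**Figure D2:**
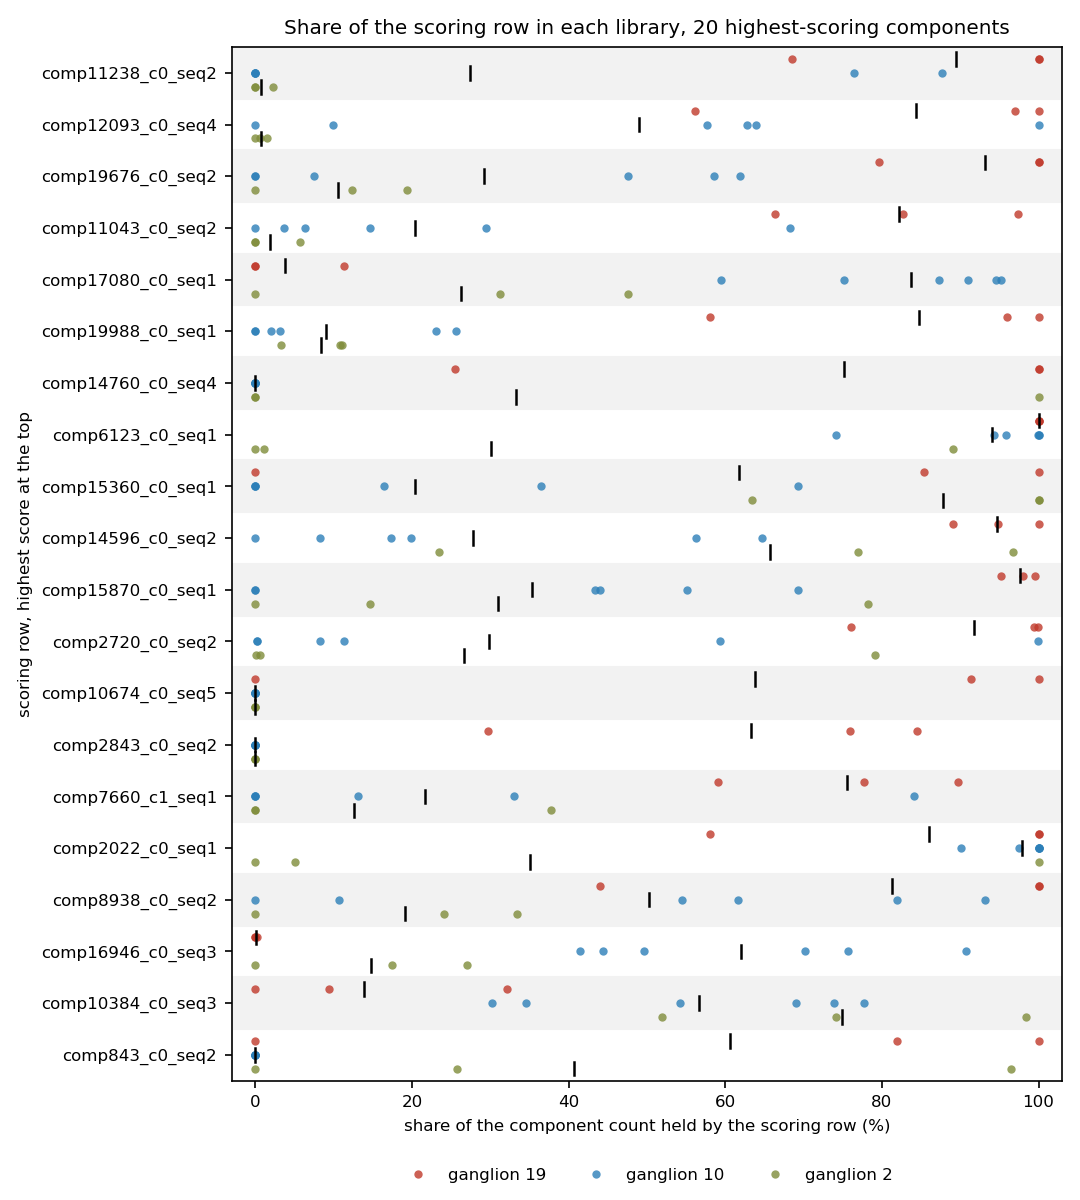
Share of the component count held by the scoring contig (scoring row; horizontal axis, percent) in each library, for the 20 members with the highest scores, one per row with the highest score at the top. Points are libraries of ganglion 19 (red), ganglion 10 (blue) and ganglion 2 (olive), and the black bar is the mean of each ganglion. Points of 1 ganglion often lie far apart, as for comp15360_c0_seq1, which was at 0% in library 3 and at 100% in library 9 of ganglion 19.

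Among members whose score was set by ganglion 19 against ganglion 10, the 3 highest without overlap between these ganglia were comp17080_c0, comp14760_c0 and comp14596_c0. In comp17080_c0, with 4 contigs, comp17080_c0_seq1 held 11.3%, 0% and 0% in ganglion 19 (libraries 3, 6 and 9), against 59.5% to 95.2% in ganglion 10 with a median of 89.1%. The difference of -80.0 percentage points (ganglion 19 minus ganglion 10) was made up by comp17080_c0_seq2 and comp17080_c0_seq3. Both contigs held the same counts in every library, 44.4%, 49.5% and 49.9% each in ganglion 19, and both were at 0% in 5 of the 6 ganglion 10 libraries. The sources used here do not say how reads were divided between contigs that always hold equal counts. Ganglion 2 lay between, with comp17080_c0_seq1 at 0%, 47.6% and 31.3%.

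comp14760_c0_seq4 held 100%, 100% and 25.5% of its component in ganglion 19 (libraries 3, 6 and 9), and no counts in any ganglion 10 library. The 6 ganglion 10 libraries together held 1841 counts of the component. Pooled over them, a count of 0 allows a share of up to 0.163% at the 95% level (3 counts over the pooled total). In single libraries the limit was looser, with a 95% Wilson interval up to 2.96% in library 11. The contig was not a mark of ganglion 19, since it also held 100% in library 1 of ganglion 2, with 0% in libraries 4 and 7. comp14596_c0_seq2 held 100%, 89.1% and 94.9% in ganglion 19, against 0% to 64.7% in ganglion 10 with a median of 18.6%. Its highest ganglion 10 values were 56.3% and 64.7% in libraries 2 and 5, the same libraries in which comp11238_c0_seq2 was high. In ganglion 2 it ran from 23.5% to 96.8%.

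**Figure D3:**
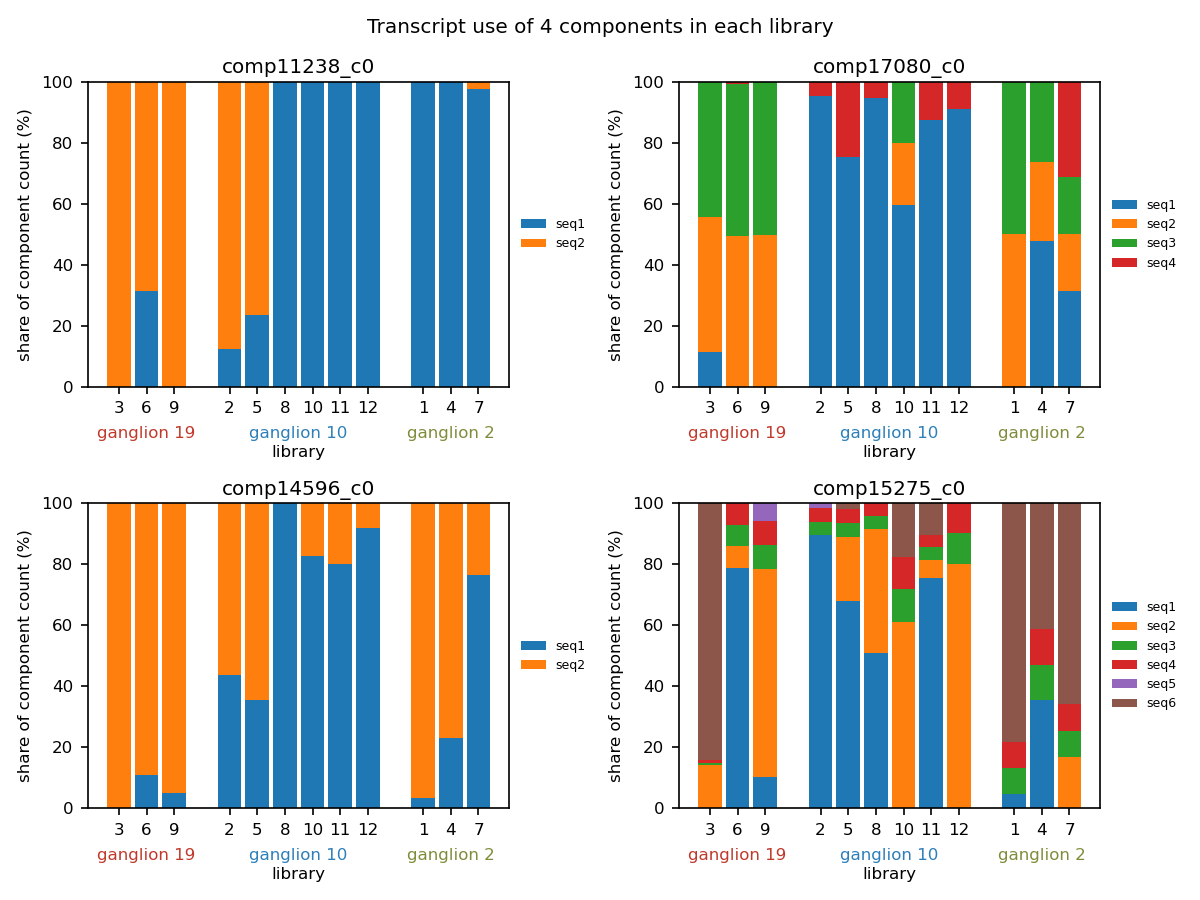
Share of the component count held by each contig (stacked bars, percent) in each of the 12 libraries for comp11238_c0, comp17080_c0, comp14596_c0 and comp15275_c0, with libraries grouped as ganglion 19, ganglion 10 and ganglion 2. In comp17080_c0 the first contig is the largest part of all 6 ganglion 10 bars and at most 11.3% of a ganglion 19 bar. In comp15275_c0 the sixth contig is the largest part of all 3 ganglion 2 bars and also of library 3 of ganglion 19.

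Between ganglia 10 and 2 the highest score was that of comp15360_c0, whose libraries overlapped. comp15360_c0_seq1 held 0% to 69.2% in ganglion 10 with a median of 8.20%, against 100%, 100% and 63.5% in libraries 1, 4 and 7 of ganglion 2. Library 2 of ganglion 10, at 69.2%, lay above library 7 of ganglion 2. Among members without overlap, comp15275_c0_seq6 held 0% to 17.5% in ganglion 10 with a median of 0.909%, against 78.2%, 41.3% and 65.9% in ganglion 2. In ganglion 19 it was at 84.3% in library 3 and at 0% in libraries 6 and 9. comp14105_c0_seq1 held 30.2% to 84.3% in ganglion 10 with a median of 42.2%, against 100% in every ganglion 2 library. Library 6 of ganglion 19 had none of it and libraries 3 and 9 had 100%. comp13474_c0_seq2, from a component of 8 contigs, held 10.4% to 57.5% in ganglion 10 with a median of 46.3%, against 98.4%, 83.5% and 76.7% in ganglion 2. The ganglion 19 libraries of these 3 components spread over 84.3, 100 and 78.9 percentage points.

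In 11 members the scoring contig held more than 50% of the component in every library of one ganglion of the pair and less than 50% in every library of the other, against 2.36% of the 466 components with a score above 0. The shares chose the members, so this count is a description. Apart from 6 of those already named, they were comp7660_c1, comp10384_c0, comp2227_c0, comp14327_c0 and comp13777_c0, which were chosen after their values were seen. In comp14327_c0, with 5 contigs, the libraries of each ganglion of the pair lay close together. comp14327_c0_seq1 held 14.6%, 16.5% and 18.7% in libraries 3, 6 and 9 of ganglion 19, against 55.0% to 75.8% in ganglion 10 with a median of 66.8%. Ganglion 19 averaged 16.6% ± 2.08 (SD, n = 3), against an average of 65.7% ± 7.51 for ganglion 10 (SD, n = 6). comp14327_c0_seq2 filled the gap, with 74.3%, 74.4% and 63.2% in ganglion 19 and 17.2% to 32.5% in ganglion 10. Libraries 4 and 7 of ganglion 2, at 63.3% and 67.2% for comp14327_c0_seq1, lay within the range of ganglion 10, and library 1 had 0%. comp13777_c0 was the only one of the 11 scored between ganglia 10 and 2. Its contig comp13777_c0_seq2 held 51.1% to 76.2% in ganglion 10 with a median of 60.0%, against 0%, 38.9% and 23.0% in libraries 1, 4 and 7 of ganglion 2, and 31.0% to 54.2% in ganglion 19.

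In 13 members a contig had at least 10 counts in every library of one ganglion and no count in any library of another, which held for 3.86% of the 466 components. comp2843_c0_seq2 was the only one absent from both other ganglia. It held 75.9%, 29.6% and 84.5% of its component in libraries 3, 6 and 9 of ganglion 19 and none in the 9 libraries of ganglia 10 and 2. Pooled over the libraries of each ganglion, counts of 0 there allow a share of up to 0.0121% in ganglion 10 and up to 0.0195% in ganglion 2. These limits rest on 24797 and 15352 counts of the component. Its loss of share was borne by comp2843_c0_seq1, at 14.8%, 68.2% and 15.5% in ganglion 19, against 76.0% to 94.4% in ganglion 10 and 89.6% to 97.6% in ganglion 2. The most frequent pattern was presence in ganglion 2 with absence from ganglion 19, found in 6 members. Over the 466 components it was found in these 6 members and in comp7600_c0, which is outside the members. Patterns with ganglion 10 ask more libraries to agree. Library 3 of ganglion 19 also had no count in 50.5% of the members' contigs, the most of any library. The frequency is thus not read as a trait of ganglion 19. In comp10914_c0, 3 of the 4 contigs were missing from all ganglion 19 libraries, where comp10914_c0_seq4 held 100%. That contig held 5.65% to 79.0% in ganglion 10 and 34.4%, 57.7% and 39.0% in libraries 1, 4 and 7 of ganglion 2. comp12003_c0_seq3 had no count in ganglion 19, 2.25% to 28.8% in ganglion 10 and 68.9%, 55.9% and 9.18% in ganglion 2. These components were also named after their values were seen.

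Libraries of the same ganglion differed widely. The 139 members in which the range of the scoring contig within at least 1 ganglion exceeded the score compare with 97.0% of the 466 components. The median range over members was 41.36 percentage points within ganglion 19 (3 libraries), 54.71 within ganglion 10 (6 libraries) and 47.21 within ganglion 2 (3 libraries). The median SDs were 22.26, 20.96 and 24.94. The 11 members with a smaller range in every ganglion included comp11238_c0, comp19676_c0, comp11043_c0, comp17080_c0 and comp19988_c0 among the first 6 by score. Counting error was small beside this. The 95% Wilson interval of a scoring contig's share in 1 library had a median width of 4.39 percentage points and a greatest width of 18.9. Such intervals and the limits for counts of 0 cover counting error only, since copies made by PCR are not independent molecules. Error in how reads were divided between the contigs of a component is not covered and was not measured. In comp12003_c0, for example, comp12003_c0_seq1 and comp12003_c0_seq2 held 770 counts each in library 11 but 1828 and 63 in library 12. Ranges between libraries may hold such error.

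**Figure D4:**
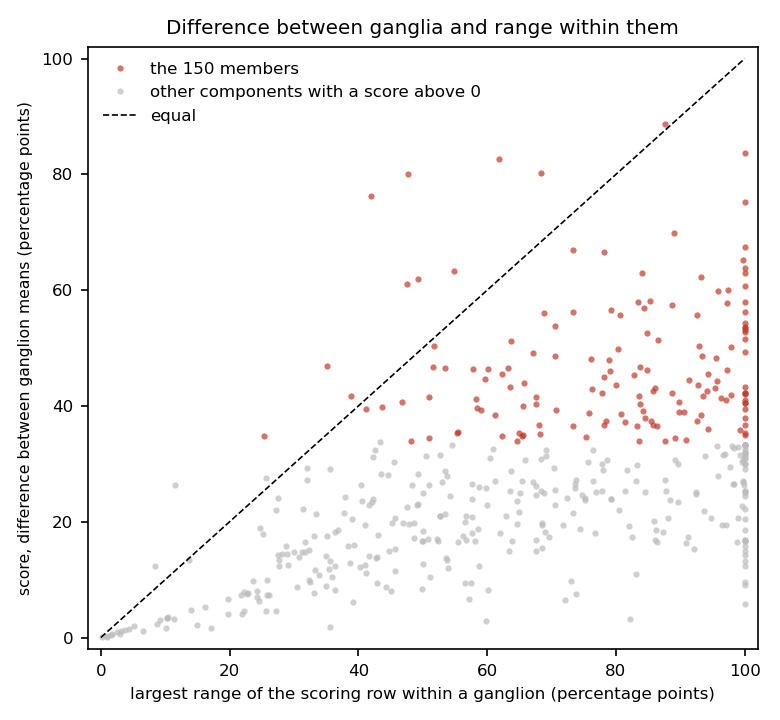
Score of each component (vertical axis, percentage points) against the largest range of its scoring contig (scoring row) among libraries of 1 ganglion (horizontal axis, percentage points), for the 150 members (red) and the other components with a score above 0 (grey). The dashed line marks equal values, and 139 of the 150 members lie to its right, many at a range of 100 points.

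In 59 members leaving out 1 library reduced the difference by more than 1.5 times, against 70.8% of the 466 components. Library 1 of ganglion 2 was that library in 21 members, library 3 of ganglion 19 in 12 and library 9 of ganglion 19 in 11. No difference changed sign, but this was fixed by the choice. With shares from 0% to 100%, a score above 33.33 points keeps its direction when 1 library is left out. The smallest part was left in comp4354_c0, named after its values were seen, where the difference of -35.0 percentage points (ganglion 19 minus ganglion 2) was -3.43 without library 9. Rescored without library 1, 128 of the 150 members still reached 33.86 points, the lowest member score. The number was 136 without library 3, 129 without library 9 and 121 without libraries 1 and 3 together. Membership itself moved more. Fewer libraries let more components meet the minimum and also change the ganglion means, and the part of each was not tested. The rule found 81 of the 150 again without library 1, among 1184 eligible components, and 55 without libraries 1 and 3, among 1638. Without library 9 it found 109 again, among 823 eligible components, close to the 808 with all libraries. Without any single library of ganglion 10 it found 131 to 143 again. In 125 of the 150 components chosen without libraries 1 and 3 the remaining libraries did not overlap, where ganglia 19 and 2 then have 2 libraries each, against 65 with all libraries.

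In the members, libraries 3 and 1 stood apart in how their counts were spread over contigs. A single contig held over 99% of the component in 57 members in library 3 (38.0%) and in 50 members in library 1 (33.3%). The other libraries had 23 and 35 such members in ganglion 19, 14 to 24 in ganglion 10, and 30 and 21 in ganglion 2. The effective number of contigs per member (1 divided by the sum of squared shares) had a median of 1.18 in library 3 and 1.16 in library 1, and of 1.53 to 1.79 in the others. Over the components outside the members library 1 was again the lowest, at 1.29, while library 3, at 1.52, lay near library 9 at 1.57, and the others had 1.68 to 1.84. These libraries also had the lowest TMM scaling factors (the correction edgeR applies to library size), 0.536 and 0.425, against 0.885 to 1.49 elsewhere, while their median component counts over members, 384 and 584, compare with 402 to 1112 in the other libraries. The part of these features in the scores was not tested.

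To read shares in a library that had not helped to choose the components, the rule was applied anew without each library in turn. The library left out was then compared with the mean of its own ganglion and that of the other ganglion of the pair, in components with at least 100 counts in it. The ganglion 19 libraries were nearer their own ganglion in 52 of 97 components (library 3), 54 of 134 (library 6) and 58 of 126 (library 9). The ganglion 10 libraries were nearer their own in 43 of 76 (library 2), 51 of 80 (library 5), 50 of 76 (library 8), 58 of 75 (library 10), 59 of 81 (library 11) and 61 of 77 (library 12). The ganglion 2 libraries were nearer their own in 33 of 70 (library 1), 45 of 111 (library 4) and 42 of 115 (library 7). The left-out ganglion 10 libraries thus resembled their own ganglion more often than not, and of the others only library 3 did so. This was not particular to the chosen components. In ganglion 10 the left-out library was nearer its own in 56.6% to 79.2% of them, against 59.4% to 70.4% of the components with a score above 0 that were not chosen. For library 3 the values were 53.6% and 50.7%. The own mean rested on 5 libraries for ganglion 10 and on 2 for ganglia 19 and 2. Some of the ganglion 10 libraries may also come from the same animal as the one left out. The part of this in its higher values was not tested.

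Components chosen without a ganglion 19 library differed by a median of 49.1 to 50.6 percentage points between the remaining libraries of the pair. In the left-out library the median difference from the other ganglion, counted toward its own, was 35.2, 16.3 and 20.4 points for libraries 3, 6 and 9. For ganglion 10 the chosen medians were 41.5 to 44.9 points. The left-out medians were smaller than these for libraries 2, 5, 8 and 11, at 29.1, 37.5, 38.1 and 39.4 points, but not for library 10, at 46.7 points against 41.5, or library 12, at 43.4 points against 43.1. For ganglion 2 they were 50.4 to 51.8 points, and 19.4, 17.7 and 11.5 points were found in libraries 1, 4 and 7. The libraries of the other ganglion took part in the choice, so a difference from their mean is raised by it also in a library left out. Components with a score above 0 that were not chosen had the left-out library nearer its own ganglion in 45.8% to 54.0% of cases for ganglion 19, 59.4% to 70.4% for ganglion 10 and 41.2% to 45.4% for ganglion 2.

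Taken over all contigs of the 150 members, libraries were compared by the percent of a component's counts that would have to move to another contig to make them equal. Its mean over members was 42.8% to 45.7% between libraries of ganglion 19, 28.6% to 39.9% within ganglion 10, and 34.4% to 49.1% within ganglion 2. Between ganglia it was 38.8% to 54.1% for 19 and 10, 43.2% to 60.8% for 19 and 2, and 32.8% to 58.2% for 10 and 2. Libraries 11 and 12 of ganglion 10 were the closest pair. Library 7 of ganglion 2 was closer to library 8 of ganglion 10, at 32.8%, than to library 4 of its own ganglion, at 34.4%. Library 6 of ganglion 19 was closer to libraries 5, 8, 11 and 12 of ganglion 10, at 38.8% to 42.7%, than to library 9 of ganglion 19, at 42.8%. Library 1 was at least 48.3% from every other library. The members were chosen to differ between ganglia, so values between ganglia are raised by the choice. Libraries of ganglion 10 may share an animal, and the part of this in the values within ganglion 10 was not tested.

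**Figure D5:**
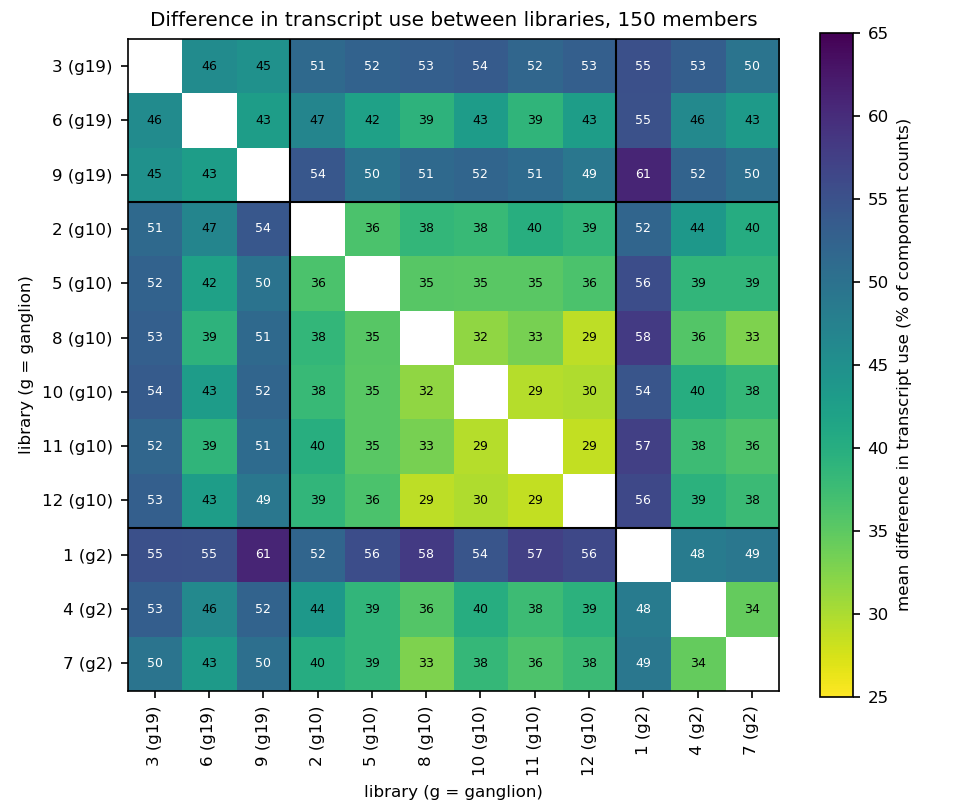
Mean difference in transcript use between each pair of libraries over the 150 members, as the percent of a component's counts that would have to move between contigs (colour, with the value printed to whole percents), with libraries ordered as ganglion 19, ganglion 10 and ganglion 2 (g19, g10 and g2). Values among libraries 8, 10, 11 and 12 of ganglion 10 lie between 28.6% and 33.2%, and the highest are in the row and column of library 1, up to 60.8% with library 9.

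Sequencing lanes held libraries of different ganglia. Lane 4 had 1 library of ganglion 19, 3 of ganglion 10 and 1 of ganglion 2, lane 8 had 2, 2 and 1, and lane 2 had none of ganglion 19. The direction of a member whose libraries do not overlap is fixed within any lane, so the 85 members with overlap were read separately. In 78 of these the difference had the same direction in lane 4, in 77 the same direction in lane 8 and in 70 in both. The median difference along the direction of all libraries was 66.67 percentage points in lane 4 and 33.49 in lane 8 for these 85 members. These lanes make up 10 of the 12 libraries that chose the members, so such counts follow largely from the choice. Library 1 is in lane 4 and library 3 is in lane 8.

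Libraries 10, 11 and 12 differ from the others in that their deposited values are not all whole. Within ganglion 10, where the choice made no use of this, the mean share of the scoring contig differed between libraries 10 to 12 and libraries 2, 5 and 8 by a median of 12.47 percentage points over members, against 7.19 over the other components with a score above 0. In 22 of the 150 members these sets did not overlap, near the 12.2% found over the 466 components. When libraries 1 to 9 alone chose the components, 127 of the 150 were found again.

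Members had more contigs than other components with a score above 0. Of the 161 components of 2 contigs with a score above 0, 36 (22.4%) were members, against 114 of the 305 with more than 2 contigs (37.4%). A pair of contigs with the same values in all 12 libraries occurred in 27 members, and 17 members had a pair with equal counts above 0 in at least 10 libraries. The mean count of a member over libraries had a median of 697 and ran from 202 to 16760, against a median of 799 for the other components with a score above 0. The rule's minimum sets the lower end of these values.

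The totals of the components were tested to ask whether the same ganglia also differed in how much of a component was present. No member passed edgeR's quasi-likelihood test with Benjamini-Hochberg adjustment over 31524 components in any comparison. For ganglion 19 against ganglion 10, 0.0888% of all components passed, and the smallest adjusted p of a member was 0.171. For ganglion 19 against ganglion 2 the values were 0.019% and 0.198, and for ganglion 10 against ganglion 2 they were 0.0% and 0.354. At an unadjusted p under 0.05 edgeR gave 10, 8 and 16 of the 150 members in these comparisons, against 21.6%, 20.0% and 10.6% of the 31524 components, and 71, 54 and 54 of the 808 eligible components. DESeq2 gave a p-value for 141 members, and at an adjusted p under 0.05 it called 0 of them in each comparison. Of the 29187 components with a p-value it called 11.9%, 8.04% and 1.91%. At an unadjusted p under 0.05 DESeq2 gave 7, 9 and 14 of the 141 members, against 25.4%, 22.7% and 13.2% of the 29187 components. The minimum of 100 counts in every library keeps components that are near silent in a ganglion out of the members. Among all 808 eligible components edgeR called 0 in each comparison. DESeq2 called 11, 2 and 1 of the 775 to which it gave a p-value. The part of the minimum in these counts was not tested. The comparison is the one that chose the members, and nothing further is read from these counts.

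The absence of a call does not show equal totals. The median standard error of a member's log2 fold change was 0.69 for ganglion 19 against ganglion 10, 0.80 for ganglion 19 against ganglion 2 and 0.68 for ganglion 10 against ganglion 2. The log2 fold changes themselves ran from -1.48 to 2.08, from -2.65 to 2.11 and from -2.51 to 1.03, with medians of 0.31, -0.15 and -0.40. The medians over all 31524 components were -0.44, -0.23 and 0.37, and over the 808 eligible components 0.42, -0.05 and -0.36. The total of comp11238_c0, in TMM-scaled CPM, averaged 64.6 ± 7.79 for ganglion 19 (SD, n = 3), 93.7 ± 12.8 for ganglion 10 (SD, n = 6) and 90.1 ± 8.33 for ganglion 2 (SD, n = 3). comp14327_c0, whose majority contig differed between ganglia 19 and 10, averaged a total of 151 ± 87.5 CPM for ganglion 19, 76.3 ± 12.9 CPM for ganglion 10 and 101 ± 85 CPM for ganglion 2.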

How the data were processed

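Per the labels, total RNA was extracted with a lipid tissue kit and sequenced on an Illumina HiSeq. The authors deposited counts per contig for libraries 1 to 9. For libraries 10 to 12 the authors deposited expected counts, a reading taken from their values, which are not all whole. According to the submitters' processing notes RSEM, FastQC, Cufflinks and TopHat were used, with no version or role given. The assembler and genome build were not given in the sources used here.

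Shares were computed from the values as deposited. For the tests counts were summed per component, rounded after summing, scaled by TMM, filtered with filterByExpr (minimum count 10) and fitted with edgeR 4.0.16 (quasi-likelihood, ganglion as the only factor, all 12 libraries) in R 4.3.3, with calls at an adjusted p under 0.05. DESeq2 1.42.0 was an alternative. Other settings changed the scaling, the filters, the count minimum (50 or 200), the mean, the lanes and the libraries used. Shares, intervals and figures were made with Python 3.11.15, pandas 2.3.3, numpy 2.4.6, scipy 1.17.1 and matplotlib 3.10.9.

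Named components were the 10 highest scores, the 3 highest of each ganglion pair without overlap, the 3 on either side of the limit, and any called in a test of totals (there were none). Others are said to have been chosen after their values were seen. The members, rules and tests were chosen with earlier results of these data known.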

Additional observations from a re-analysis of the deposited data

Results flagged for a closer look

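Among 17 named components, a library of ganglion 10 stood far from the other 5 in 3, by a rule on the gap to the nearest library. The rule flags about 1 in 20 groups by chance if values are normally distributed. Shares are bounded and often lie at a bound, so the 3 of 17 are not read against that rate. In comp6123_c0 the scoring contig held 74.19% in library 8, and the nearest other library had 94.32%. In comp14105_c0 it held 84.28% in library 11, and the nearest had 48.39%. In comp11344_c0, just outside the limit, it held 92.16% in library 5 and 100% in the other 5 libraries, where any lower value would be flagged. The cause was not tested.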

How the results depend on the processing

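The rule found 84 of the 150 members again with a minimum of 50 counts, 74 with 200, 46 in lane 4 alone, 54 in lane 8 alone, 55 without libraries 1 and 3 (chosen after seeing the data) and 81 to 143 without 1 library each. The number of eligible components ran from 457 to 1638 over these settings. Members without overlap numbered 33 with medians in place of means, 43 with pooled counts, 37 with a minimum of 200, 125 without libraries 1 and 3 and 63 to 94 without 1 library each. The overlap count was not run in single lanes, which hold 1 library of ganglion 2. The median score was 98.87 points in lane 4 and 76.6 in lane 8, where fewer libraries enter the means, and 44.03 to 52.23 without 1 library each. The count of members with another leading contig stayed within 1.5 times of 104, at 100 to 122 without 1 library each.

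Counts of components called by total moved widely. For ganglion 19 against ganglion 10 the 28 calls became 148 without a filter, 2 with at least 1 CPM in 6 libraries, 1 with libraries 1 to 9, 104 with only the ganglia compared, 197 without libraries 1 and 3, 3465 with DESeq2 and 18 to 290 without 1 library each. For ganglion 19 against ganglion 2 the 6 calls became 0 with upper quartile scaling, 0 with at least 1 CPM in 6 libraries, 16 with libraries 1 to 9, 63 with only the ganglia compared, 2348 with DESeq2 and 0 to 132 without 1 library each. For ganglion 10 against ganglion 2 the 0 calls became 48 with upper quartile scaling, 542 without a filter, 558 with DESeq2 and 0 to 133 without 1 library each. The cause was not tested. No member was called under any of the 20 other settings, DESeq2 among them. Of 342 share differences of 19 named components under other settings, 309 stayed within 1 SD, 33 moved further and 0 changed sign. Leaving out 1 library cannot change the sign at the scores of these components, so only the other settings bear on that last count. No paired analysis was possible because each library has a number of its own and the labels do not tie libraries to leeches.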
